A study of Mus musculus with 2 samples.

Results

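The DOCK family of Rac and Cdc42 activators was examined in young mouse embryonic fibroblasts (MEFs) after knockdown of the lncRNA AK156230. The members were 9 genes, Dock1, Dock2, Dock4, Dock5, Dock6, Dock8, Dock9, Dock10 and Dock11, read by every probe set whose platform annotation names only that gene, which gave 28 of the 45037 probe sets of the table and 9 of its 18193 named genes. The family was chosen with the ratios between these arrays known, so those ratios chose the members and are given as a description, with no test. Dock3, another DOCK gene, was measured but was not a member.

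Primary MEFs came from C57BL/6 embryos of 13.5 days and were used at passage 2. One culture was transfected with GapmeR AK156230, a locked nucleic acid oligonucleotide that directs RNase H to the lncRNA, and the other with GapmeR Control, a scrambled oligonucleotide with no target. Each condition had 1 array, so no difference below has a replicate check or a p-value, and a single GapmeR against AK156230 stands for the knockdown, whose depth was not read here because 0 probe sets name the lncRNA. The deposited values are MAS5 signals, 1 per probe set, on a linear scale that the authors had scaled per array. Their median was 50.95 with GapmeR AK156230 and 54.8 with GapmeR Control. A signal is called bright here when, on the array where the probe set is brighter, it is at or above that median. A log2 ratio is GapmeR AK156230 over GapmeR Control, and a difference of 2-fold or more in signal is counted as lower or higher. Of all probe sets 1476 were lower and 655 were higher, and 1197 and 896 with both arrays scaled to the same median, which raises every log2 ratio by 0.11. Bright fibroblast genes were on both arrays: all 13 measured fibroblast markers were bright, with signals from 216.96 to 6211.66 with GapmeR AK156230 and from 486.72 to 7019.42 with GapmeR Control. Markers of other cells were bright in part: 10 of 15 leukocyte, 5 of 10 endothelial and 5 of 8 epithelial markers.

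DOCK proteins are guanine nucleotide exchange factors. They load Rac, Cdc42 or both with GTP through a catalytic DHR2 domain, while a DHR1 domain binds phosphoinositides and brings them to the membrane, and active Rac and Cdc42 then drive actin polymerisation, lamellipodia and filopodia. The DOCK-A and DOCK-B subfamilies act on Rac together with ELMO proteins, the DOCK-D subfamily acts mainly on Cdc42, and members of DOCK-C act on Rac, Cdc42 or both. In fibroblasts this machinery is known for its part in spreading and migration, and in leukocytes for chemotaxis.

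After transfection with GapmeR AK156230, Dock1, Dock11 and Dock10 were lower by 2-fold or more, and the other 6 DOCK genes were within 2-fold. Of the 28 probe sets 4 were lower, against 3.28% of all probe sets, and none was higher, against 1.45%. Of the 10 bright probe sets 3 were lower, against 4.32% of all bright probe sets. Counted as genes by the brightest probe set, 3 of 9 were lower, against 3.85% of all named genes, and none was higher, against 1.59%. These ratios are the ones that chose the family, so nothing is read from the excess. Log2 ratios below 0 were found in 24 of the 28 probe sets, against 57.8% of all probe sets, and in 20 against 45.5% with both arrays scaled to the same median. All 9 genes were below 0 at their brightest probe set, against 58.8% of named genes, although Dock6 was above 0 after any of the 3 scalings. The median over the DOCK probe sets was -0.31, against -0.07 over all probe sets. Just past the threshold was a probe set of Dock10 at -1.16, and just short of it a dim probe set of Dock9 at -0.98.

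**Figure D1:**
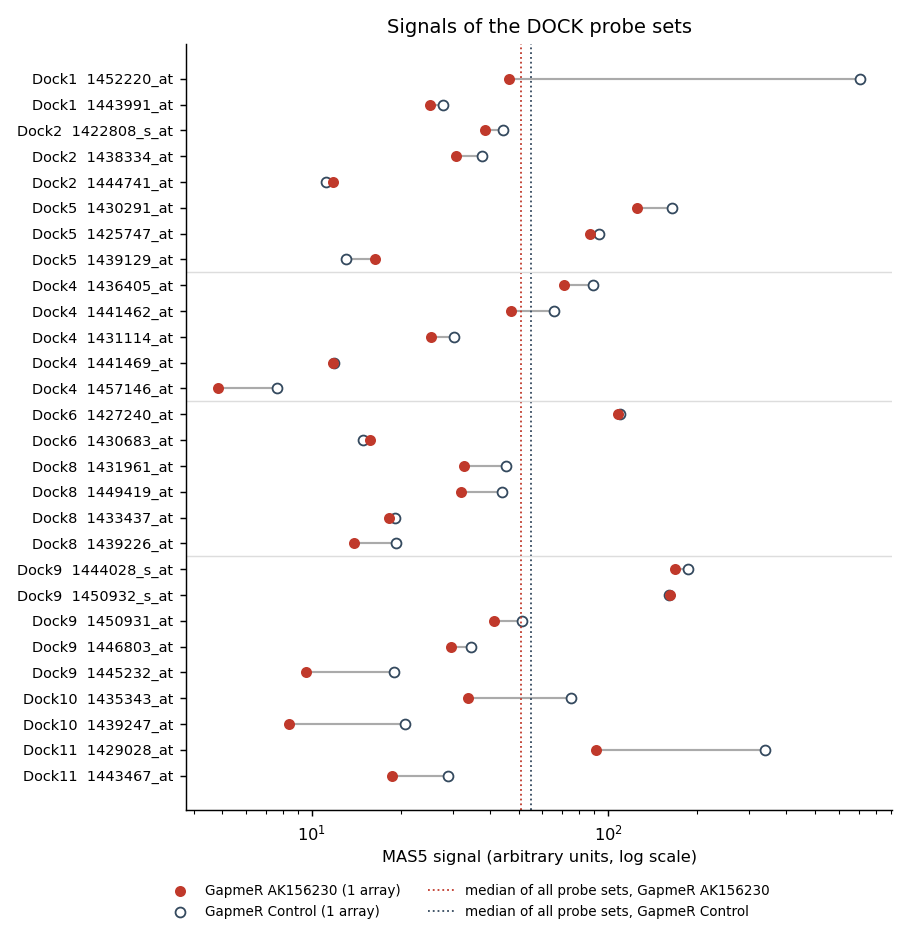
MAS5 signal (log scale) of each DOCK probe set with GapmeR AK156230 (filled) and GapmeR Control (open), 1 array each, grouped by subfamily from DOCK-A at the top to DOCK-D, with dotted lines at the median of all probe sets of each array. The widest gaps belong to Dock1 (46.42 and 710.02) and Dock11 (90.95 and 339.14), and 18 of the 28 probe sets are not bright.

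Among the DOCK-A genes, Dock1 had the lowest ratio of the family. Dock1 encodes the Rac activator that works with ELMO1 in the uptake of apoptotic cells, in spreading and in migration. Its bright probe set 1452220_at had a signal of 46.42 with GapmeR AK156230 and 710.02 with GapmeR Control, 15.3-fold lower (log2 ratio -3.94), and only 10 of the 45037 probe sets had a lower ratio. The signal with GapmeR AK156230 was below the median of that array, and with the 25th percentile of all signals (24.3) added to each value the log2 ratio was -3.38. The other probe set, 1443991_at, was dim on both arrays, at 25.08 with GapmeR AK156230 and 27.65 with GapmeR Control, with a log2 ratio of -0.14. A Dock1 ratio past 2-fold thus rests on 1 probe set, and the mean over both was -2.04.

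Dock2 and Dock5, the other Rac activators of this subfamily, were within 2-fold at every probe set. Dock2 is the DOCK protein of lymphocytes and other leukocytes. Its 3 probe sets were all dim, and the brightest of them had signals of 38.43 with GapmeR AK156230 and 44.18 with GapmeR Control (log2 ratio -0.20). Of 15 measured leukocyte markers none reached 2-fold lower, a count near the share of all named genes (3.85%). Their summed signal was 1789 with GapmeR AK156230 and 1863 with GapmeR Control, with single signals from 17.34 to 526.64 and from 17.89 to 724.68. Ptprc, the pan-leukocyte phosphatase CD45, was dim at 25.85 and 30.89 on those arrays. Cd68 (274.59 and 108.03) and Cd14 were higher by 2-fold or more, 2 of the 15 markers, against 1.59% of all named genes. Lyz2, the abundant lysozyme of macrophages, had 526.64 with GapmeR AK156230 and 724.68 with GapmeR Control. Fewer cells of a type and less RNA per cell cannot be told apart in a bulk culture. Dock5, known for its role in the resorbing activity of osteoclasts, had signals of 125.07 with GapmeR AK156230 and 164.1 with GapmeR Control at its brightest probe set (log2 ratio -0.39). The second bright probe set of Dock5 gave 86.84 and 92.88 in the same order (-0.10), and the remaining dim one went the other way (0.33), so the mean over all its probe sets was -0.05.

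Dock4, the only DOCK-B member, is a Rac activator linked to lamellipodia and to the growth of neurites. All 5 of its probe sets had log2 ratios below 0, from -0.66 to -0.01, and all lay within 2-fold. At the brightest the signal was 71.16 with GapmeR AK156230 and 88.75 with GapmeR Control (log2 ratio -0.32), and at the second bright probe set it was 46.99 and 65.51 on those arrays. The lowest ratio of Dock4 came from its dimmest probe set, with signals of 4.83 and 7.63. Dock3, which shares the subfamily but is not a member, was dim at both of its probe sets, with log2 ratios of -0.16 and 0.16.

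Of the DOCK-C genes, Dock6 was the member with the smallest difference. Dock6 acts on both Rac and Cdc42 and is known in humans as a gene of Adams-Oliver syndrome. Its bright probe set had a signal of 108.23 with GapmeR AK156230 and 109.68 with GapmeR Control, a log2 ratio of -0.02, and its dim one a ratio of 0.07. The sign of Dock6 turned with any of the 3 scalings of the arrays tried (0.03 to 0.09). Dock8, a Cdc42 activator of leukocytes whose loss in humans causes an immunodeficiency, had 4 dim probe sets. Their log2 ratios were -0.47, -0.46, -0.06 and -0.47 from the brightest to the dimmest, and the brightest had signals of 32.72 with GapmeR AK156230 and 45.24 with GapmeR Control. Dock8, like Dock2, was thus read below the median signal of each array at every probe set.

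The DOCK-D genes, also called the zizimins, split: Dock11 and Dock10 were lower by 2-fold or more and Dock9 was not. Dock11 (zizimin2) activates Cdc42 and is known in B cells. At its bright probe set 1429028_at the signal was 90.95 with GapmeR AK156230 and 339.14 with GapmeR Control, 3.73-fold lower (log2 ratio -1.90). Both of these signals were above the median of their array. The dim probe set of Dock11 gave 18.66 with GapmeR AK156230 and 28.93 with GapmeR Control (-0.63), and the mean over both was -1.27.

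Dock10 (zizimin3), which acts on Cdc42 and Rac, was the only member lower by 2-fold or more at every probe set. The signals were 33.74 with GapmeR AK156230 and 75.17 with GapmeR Control at 1435343_at, 2.23-fold lower (log2 ratio -1.16), and 8.37 and 20.63 on those arrays at 1439247_at (-1.30). The probe sets of Dock10 gave ratios 0.15 apart on the log2 scale, where those of Dock1 were 3.79 apart. All of these Dock10 signals but 75.17 were below the median of their array, and with 24.3 added to every signal the log2 ratio of the brighter probe set was -0.78, within 2-fold. Dock9 (zizimin1), a Cdc42 activator known in the growth of dendrites, had 2 bright probe sets, both of a kind (_s_at) that can match more than 1 transcript. They gave 168.57 with GapmeR AK156230 and 185.56 with GapmeR Control (log2 ratio -0.14), and 161.27 and 160 on those arrays (0.01). Its 3 dim probe sets had log2 ratios of -0.32, -0.22 and -0.98, so the gene stood at -0.32 without the _s_at probe sets.

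**Figure D2:**
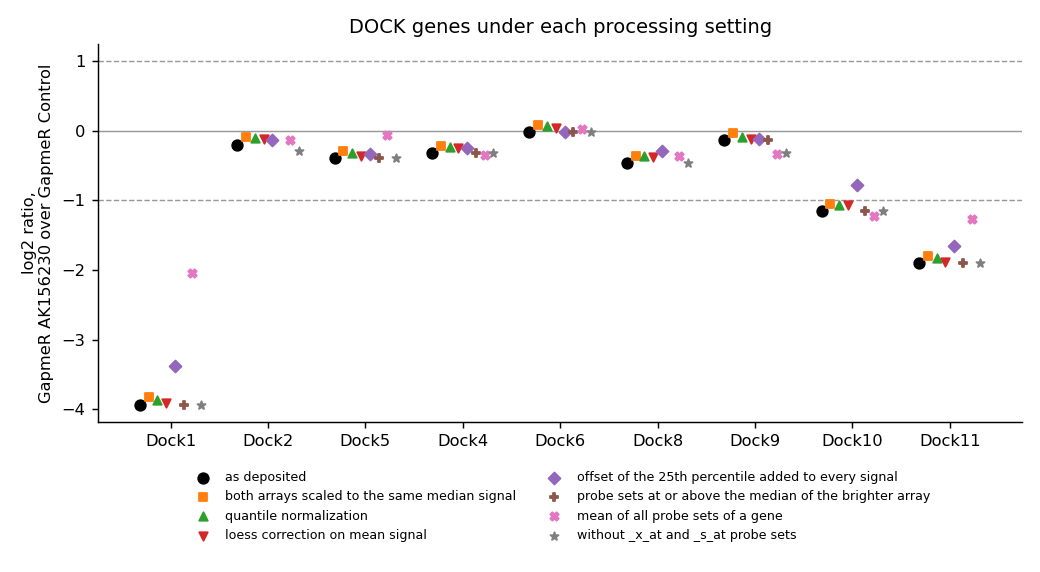
Ratio of signals (log2, GapmeR AK156230 to GapmeR Control) of each DOCK gene, with a symbol for each processing setting and dashed lines at 2-fold. Dock1 lies between -3.94 and -2.04 and Dock11 between -1.90 and -1.27, Dock10 crosses the lower dashed line in 1 setting (-0.78), and Dock6 lies on either side of 0.

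The promoters of Dock1, Dock10 and Dock11, the members lower by 2-fold or more, are shown with that of Dock6, the member with the smallest difference, to set the letters at their starts side by side. Each runs from 250 bases before to 50 bases after a start listed in RefSeq promoters (GRCm38.p6), in capitals where GGGCGG, the core of the site of SP1-type factors, or its reverse complement was found. They lie at chr7:134670437-134670736 (plus strand), chr1:80758504-80758803 (minus strand), chrX:35888582-35888881 (plus strand) and chr9:21852586-21852885 (minus strand). The start used is the outer end of the gene span given below for Dock1, and lies inside that span by 212 bases for Dock10, 1561 bases for Dock11 and 83 bases for Dock6.
Dock1: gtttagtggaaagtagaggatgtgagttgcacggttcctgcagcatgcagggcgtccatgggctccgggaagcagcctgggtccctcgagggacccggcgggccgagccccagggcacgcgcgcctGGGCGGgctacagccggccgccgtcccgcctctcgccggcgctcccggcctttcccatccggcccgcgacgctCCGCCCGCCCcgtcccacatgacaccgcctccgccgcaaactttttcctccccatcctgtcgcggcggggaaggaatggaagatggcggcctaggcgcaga
Dock10: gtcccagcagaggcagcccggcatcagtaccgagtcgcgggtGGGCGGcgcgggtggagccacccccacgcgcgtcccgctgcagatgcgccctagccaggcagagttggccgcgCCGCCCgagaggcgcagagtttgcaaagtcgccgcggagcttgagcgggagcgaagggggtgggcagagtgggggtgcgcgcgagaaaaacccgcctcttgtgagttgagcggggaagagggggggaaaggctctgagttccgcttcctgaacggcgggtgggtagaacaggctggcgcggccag
Dock11: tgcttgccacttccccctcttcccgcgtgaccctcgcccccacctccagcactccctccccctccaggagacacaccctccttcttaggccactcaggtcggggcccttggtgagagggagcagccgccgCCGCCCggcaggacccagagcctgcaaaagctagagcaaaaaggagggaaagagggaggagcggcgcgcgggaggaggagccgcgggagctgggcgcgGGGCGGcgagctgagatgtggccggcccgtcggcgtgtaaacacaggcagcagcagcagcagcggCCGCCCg
Dock6: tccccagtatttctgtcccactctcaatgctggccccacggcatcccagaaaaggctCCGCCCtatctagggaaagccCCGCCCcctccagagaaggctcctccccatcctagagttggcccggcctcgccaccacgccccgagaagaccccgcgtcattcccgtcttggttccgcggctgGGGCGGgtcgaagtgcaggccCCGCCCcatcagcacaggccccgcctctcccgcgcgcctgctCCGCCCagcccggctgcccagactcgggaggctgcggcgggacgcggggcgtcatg

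The 4 windows hold 3, 2, 3 and 5 matches of GGGCGG in the order printed, counted on both strands and with overlapping matches counted apart. CCAAT and TATAAA were searched in the same way, with no match in these 4. Promoters were found for 8 of the 9 members (a gene with several was read at its outermost start), and GGGCGG was in 7 of them, all but Dock2, against 35.7% of the 32851 promoters listed. CCAAT was in 1, that of Dock4, against 37.4%, and TATAAA in none, against 13.6%. The G and C content of the DOCK promoters ran from 54.3% in Dock2 to 79.0% in Dock9, with a median of 52.7% over all promoters. The printed promoters of the lower members and of Dock6 had nearly the same content, 70.7%, 70.0%, 70.3% and 70.3%. These matches describe letters and say nothing of binding.

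DOCK genes are long, and the 3 lower members were all among the 8 that span over 160 kb of GRCm38.p6. Dock1 spans 503.0 kb of chromosome 7 (134670687 to 135173647), Dock11 189.3 kb of chromosome X (35887271 to 36076570) and Dock10 257.7 kb of chromosome 1 (80501068 to 80758765). Dock6 alone is shorter, with 52.5 kb on chromosome 9 (21800180 to 21852718). The longest member was Dock2, dim at all its probe sets, at 557.1 kb of chromosome 11 (34226815 to 34783905), with a log2 ratio of -0.20, and Dock4, at 400.9 kb of chromosome 12 (40445957 to 40846874), stood at -0.32. Of the remaining members, Dock9 spans 259.5 kb (121538365 to 121797900) and Dock5 181.6 kb (67751928 to 67933572), both of chromosome 14, and Dock8 203.1 kb of chromosome 19 (24999321 to 25202432).

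Among bright genes over 160 kb, 3 of 6 DOCK genes were lower by 2-fold or more, against 25.4% of all 779 such genes. With dim genes included it was 3 of 8, against 18.0% of 1219. A lower gene can be bright through GapmeR Control alone, as were Dock1 (710.02, and 46.42 with GapmeR AK156230) and Dock10 (75.17 and 33.74). The ratios chose the family, so nothing is read from either excess. In bright genes under 40 kb the share lower was 2.43%, and from 40 to 80 kb, the class of Dock6, it was 5.12%. The median log2 ratio of the 8 long DOCK genes was -0.43, and that of all genes over 160 kb was -0.33. The part of gene length in the DOCK ratios was not tested.

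**Figure D3:**
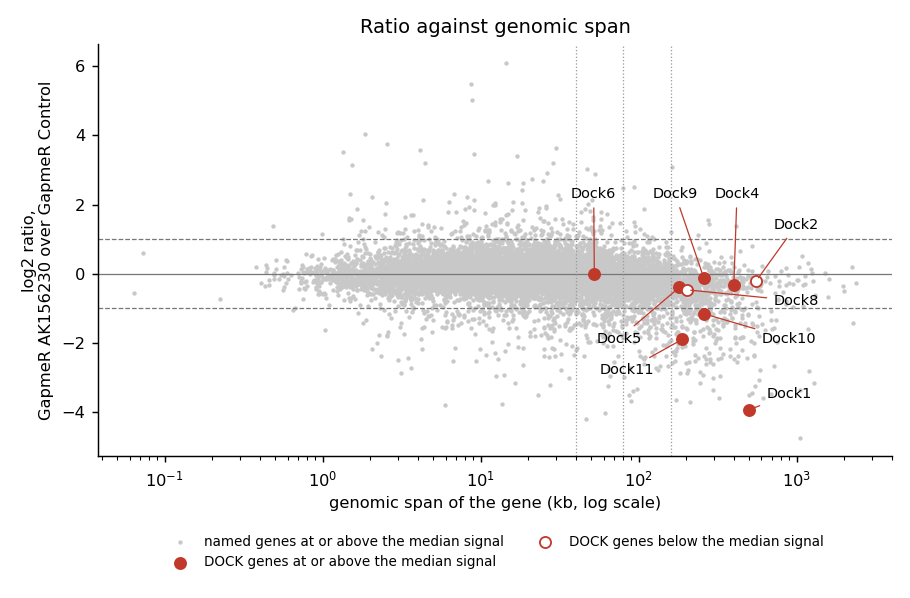
Ratio of signals (log2, GapmeR AK156230 to GapmeR Control) against the genomic span of the gene (kb, log scale) for all bright named genes (grey) and the DOCK genes (red, open where dim), with dashed lines at 2-fold and dotted lines at 40, 80 and 160 kb. Dock1, Dock10 and Dock11 lie below the lower dashed line to the right of 160 kb, where Dock2 (dim, 557.1 kb) and Dock4 (400.9 kb) lie within 2-fold.

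The measured genes nearest to the DOCK genes, or overlapping them, were read from the same arrays. Of 18 nearest measured genes on either side and 4 measured genes that overlap a member, none was lower and none was higher by 2-fold or more, a count near the shares over all named genes (3.85% lower and 1.59% higher), with log2 ratios from -0.59 (Insyn2b, dim and inside Dock2) to 0.67 (Cbwd1, beside Dock8). Insyn2a, which lies wholly inside Dock1 (chromosome 7, 134881908 to 134938430), had signals of 205.93 with GapmeR AK156230 and 270.4 with GapmeR Control, a log2 ratio of -0.39 where that of Dock1 was -3.94. Next to Dock11, the interleukin-13 receptor gene Il13ra1 had a ratio of -0.51, with signals of 41.06 and 58.66 on those arrays. On either side of Dock10 the ubiquitin ligase scaffold gene Cul3 and the insulin receptor substrate gene Irs1 were bright and stood at 0.09 and 0.21. Nearest did not always mean close: Cul3 lies 160.4 kb and Irs1 1474.3 kb from Dock10, and the gaps ran from 0.2 kb, between Dock4 and the zinc finger gene Zfp277 (-0.18), to 4642.5 kb, between Gm31556 and Dock11. The spans carry no strand, so same-strand and antisense overlaps were not told apart.

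**Figure D4:**
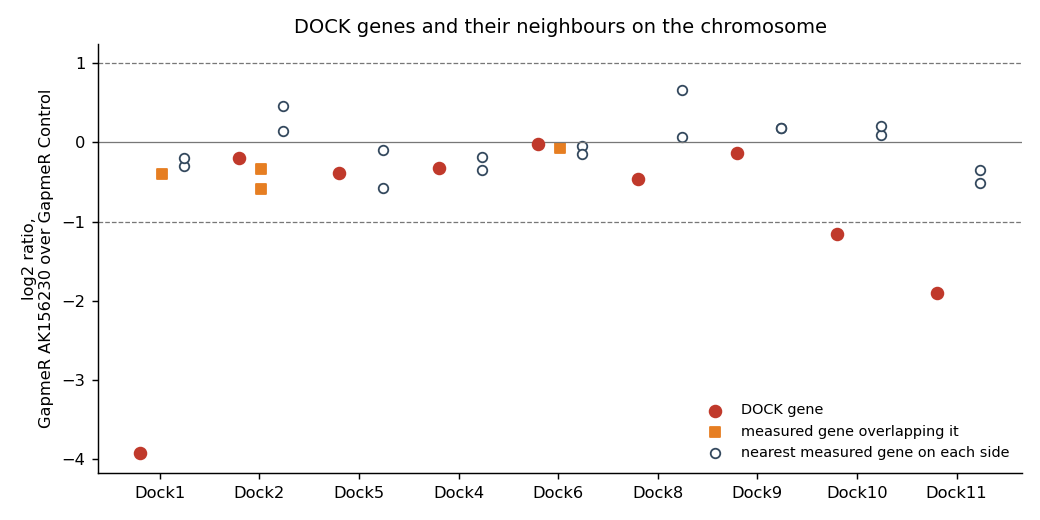
Ratio of signals (log2, GapmeR AK156230 to GapmeR Control) of each DOCK gene (red), the measured genes that overlap it (orange squares) and the nearest measured gene on each side (open), with dashed lines at 2-fold. No overlapping or nearest gene reaches 2-fold, and next to Dock1 (-3.94) its inner gene Insyn2a lies at -0.39.

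For the genes of proteins that DOCK factors work with, no measured difference reached 2-fold. Of 11 measured partners and upstream regulators none was lower and none was higher by 2-fold or more, a count near the shares over all named genes (3.85% lower and 1.59% higher), and the median log2 ratio was -0.10, against -0.07 over all named genes. Elmo1, the partner that relieves the autoinhibition of Dock1, had log2 ratios of -0.25 and -0.75 at its dim probe sets. Its bright one had signals of 89.09 with GapmeR AK156230 and 99.28 with GapmeR Control (log2 ratio -0.16). Elmo2 gave 256.85 and 274.73 on those arrays (-0.10), with a second bright probe set at 0.71, and Elmo3 was dim (-0.28). Bcar1, the scaffold p130Cas, had the highest ratio of the list by brightest probe set, with 901.1 with GapmeR AK156230 and 553.83 with GapmeR Control (0.70). The adaptors Crk and Crkl, which join p130Cas to DOCK1, stood at 0.27 and 0.22, and Rhog, the GTPase that recruits ELMO, at 0.01. Over all probe sets the ratios ran from -0.69 (bright) to 0.27 in Crk and from -0.49 (dim) to 0.22 in Crkl.

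The genes of the substrates themselves were bright. Rac1 had a signal of 2556.13 with GapmeR AK156230 and 2574.07 with GapmeR Control (log2 ratio -0.01), and Cdc42 had 1476.6 and 1587.81 on those arrays (-0.10). None of the 11 measured GTPases of this group was lower or higher by 2-fold or more, again near the shares over all named genes (3.85% and 1.59%).

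Other activators, inhibitors and effectors of Rac and Cdc42 held 10 lower genes, all of them over 160 kb. Of 32 exchange factors outside the DOCK family 4 were lower and 1 was higher by 2-fold or more, where 3.85% of all named genes were lower and 1.59% higher; the same shares apply to the lists that follow. The lower ones were Kalrn (39.86 with GapmeR AK156230 and 108.78 with GapmeR Control), Tiam1 (63.45 and 166.33), Trio (291.47 and 659.29) and the dim Prex2. Fgd3, a Cdc42 activator, was higher, with 151.37 with GapmeR AK156230 and 62.8 with GapmeR Control (log2 ratio 1.27). The ratios of its 3 probe sets ran from -0.10 to 1.27. Of 19 GTPase-activating proteins, which switch Rac and Cdc42 off, 3 were lower and none was higher: Srgap1 at a log2 ratio of -2.16, Arhgap24 at -1.59 and Srgap3 at -1.42. Of 40 effectors 3 were lower and none was higher, namely the actin-nucleating formins Diaph2 (-2.66) and Diaph3 (-2.45) and the Cdc42-binding kinase gene Cdc42bpa (-1.31).

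Activators and inhibitors of these GTPases were thus both among the lower genes. In all, 112 of 121 listed genes were measured. Of the 31 over 160 kb 10 were lower by 2-fold or more, against 18.0% of all named genes of that span, and of the 81 others none was, against 2.84% of named genes of 160 kb or under, a count near that share. As with Dock1, several of these rest on 1 of a gene's probe sets. Kalrn was lower at 1 of 8, Tiam1 at 1 of 3, Cdc42bpa at 1 of 4, Trio at 3 of 6 and Diaph2 at both. Arhgap24, Prex2, Srgap1 and Srgap3 were each lower at 1 of 2, though the other probe set of Srgap1 was just short of 2-fold (-0.97). Diaph3 had only 1 probe set. Trio, Tiam1 and Arhgap24 also had probe sets above 0, up to 0.82, 0.25 and 0.12. Averaged over the probe sets of each gene, 4 of the listed genes were lower and none was higher.

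**Figure D5:**
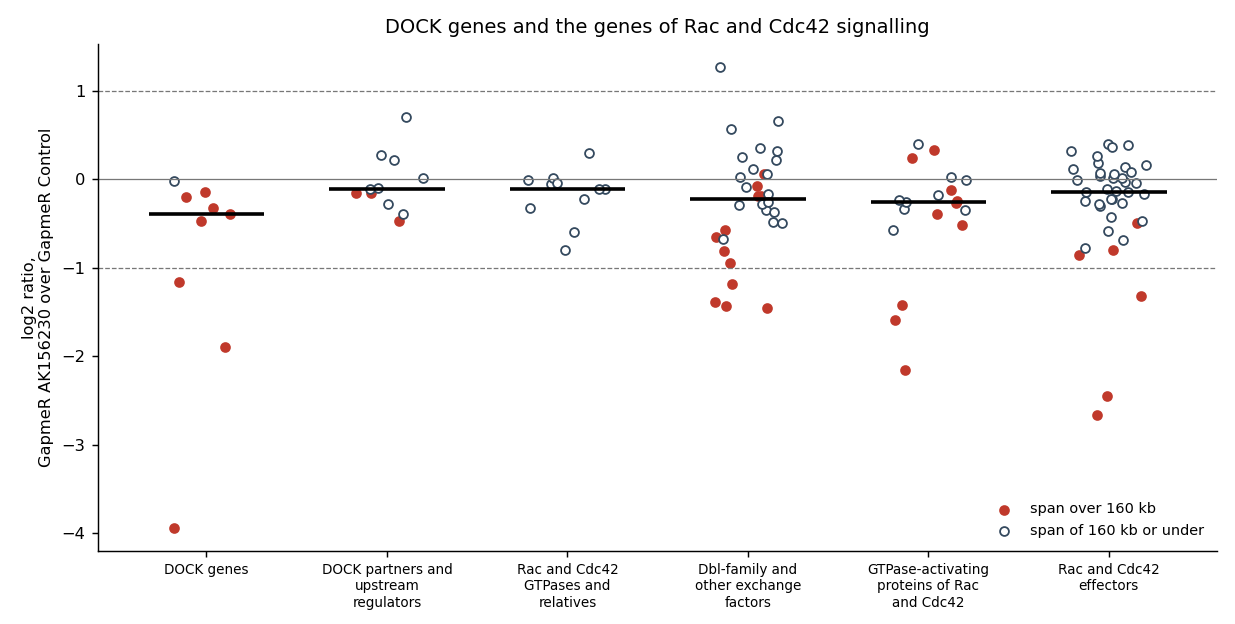
Ratio of signals (log2, GapmeR AK156230 to GapmeR Control) of each DOCK gene and each measured gene of the 5 lists of Rac and Cdc42 signalling, filled where the gene spans over 160 kb, with a black bar at the median of each list and dashes at 2-fold. From left to right the medians were -0.39, -0.10, -0.10, -0.22, -0.26 and -0.14, and every point below the lower dashed line is filled.

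Markers of fibroblasts, the cells cultured, and of other cells were set beside these ratios. Of 13 measured fibroblast markers 5 were lower past 2-fold, against 3.85% of all named genes, and none was higher past it, with summed signals of 27327 with GapmeR AK156230 and 40468 with GapmeR Control. Pdgfra, the receptor that marks many fibroblasts, had 283.31 and 1038.96 on those arrays, while Vim, the mesenchymal intermediate filament, had 6211.66 and 6598.43. Of 10 endothelial markers none was lower, near the 3.85% of all named genes, and only Kdr was higher, against 1.59%. Log2 ratios below 0 were found in 5 of the 10. The brightest were Flt1 (317.72 with GapmeR AK156230 and 580.18 with GapmeR Control), Egfl7 (218.03 and 322.28) and Esam (80.31 and 74.9). The 4 probe sets of Egfl7 ran from -0.56 to 0.56. The summed signals of the 10 endothelial markers were 881.63 with GapmeR AK156230 and 1202 with GapmeR Control. Of 8 epithelial markers none was lower and 3 were higher, against the same shares, with summed signals of 946.14 and 619.09. The higher epithelial ones were the simple keratins Krt18 (298.63 with GapmeR AK156230 and 126.94 with GapmeR Control) and Krt19 (268.77 and 128.55), and Cldn4. Epcam, also among the brightest of this list, had 103.1 with GapmeR AK156230 and 147.65 with GapmeR Control (log2 ratio -0.52). Its other probe set was at 0.25. Of the 8 epithelial markers 2 had log2 ratios below 0. The lowest signal of any probe set was 1.0 on both arrays, so a signal above 0 does not show that a marker was expressed. The part of these markers in the DOCK ratios was not tested.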

How the data were processed

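RNA of MEFs was hybridized to 2 mouse Affymetrix arrays, 1 for GapmeR AK156230 and 1 for GapmeR Control. The methods name a porcine array, but the platform annotation and the sample labels are for mouse, and the mouse annotation was used. Per the labels, MAS5 gave the deposited intensity values, which the authors scaled for each array; its version and target signal are not stated. Of 45037 probe sets, 34945 had 1 gene symbol, 932 several and 9160 none; 34741 symbols were checked through the Entrez ID. Spans and promoters came from RefSeq GRCm38.p6.

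Log2 ratios were taken from the deposited values without an offset and counted at 2-fold. SAM, which the methods name, needs groups of arrays, so no test was run. The number of arrays limits the precision. A gene was represented by the brightest of its probe sets (mean log2 over both arrays). Among 5113 genes with at least 2 bright probe sets, the log2 ratios of the brightest pair gave an SD of 0.276 per probe set. That value is the SD of the difference within pairs divided by the square root of 2. Both probe sets of a pair were read on the same arrays, so it does not measure variation between cultures, transfections or arrays. The members and the gene lists were chosen with earlier results of these data known. Named are all members, the direct partners, up to 4 bright genes of each pathway list past 2-fold, the neighbours of members and, of the markers, some of the brightest; Prex2, Ptprc, Cd14, Kdr, Pdgfra and Cldn4 were named after their values were seen. Markers not printed are covered by the counts. The counting was tested on simulated data. Python 3.11.15, numpy 2.4.6, pandas 2.3.3, statsmodels 0.14.6 and matplotlib 3.10.9 were used.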

Additional observations from a re-analysis of the deposited data

How the results depend on the processing

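Dock1 and Dock11 were lower by 2-fold or more under every scaling, offset, filter and summary tried, with log2 ratios from -3.94 to -2.04 and from -1.90 to -1.27. Dock10 was between -1.23 and -1.05 except with 24.3 added to every signal, where it was at -0.78. The DOCK probe sets lower by 2-fold or more, 4 as deposited, numbered 2 with that offset, 7 at 1.5-fold and 2 at 3-fold. The genes of the 5 pathway lists, 10 lower and 1 higher as deposited, numbered 20 and 3 at 1.5-fold, 4 and 0 at 3-fold, and 4 and 0 when the probe sets of each gene were averaged. DOCK probe sets with a log2 ratio below 0, an alternative set added after seeing the data, numbered 20 with arrays scaled to the same median, 21 with quantile normalization and 21 with loess, against 24 as deposited. The cause of these differences was not tested. No paired analysis was possible because each condition had 1 array. Signals below the array's median, as in 18 of the 28 DOCK probe sets, may lie near background, and detection calls were not used.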
